A study of Mus musculus with 15 samples.

Results

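Promoters of synaptic vesicle and endolysosomal trafficking genes were examined in a promoter-capture Hi-C data set of mouse hippocampal neuronal nuclei. They were chosen by gene name alone (syntaxins, SNAPs, VAMPs, synaptotagmins, synapsins, SV2 proteins, complexins, UNC13 proteins, vacuolar proton pump subunits, adaptor subunits, VPS proteins, sorting nexins, ATG proteins and SEC proteins). The names matched 70 of the 4429 promoters listed, with 629 of the 36353 listings of a promoter with a HindIII fragment. These 629 listings covered 628 distinct fragments, since a single fragment stood under a pair of the promoters.

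Neurons store transmitter in vesicles that a proton pump acidifies and that transmitter transporters then fill. Vesicles fuse with the plasma membrane when a vesicle SNARE zips together with SNAREs of the target membrane, under the control of calcium sensors. Their membrane is then retrieved by clathrin adaptors and sorted in endosomes, from which worn parts go to the lysosome, where material delivered by autophagy also ends.

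In promoter-capture Hi-C, fragments of DNA that are neighbours in the nucleus are ligated, and ligated pairs that contain a baited promoter are pulled out and sequenced. All groups came from ArcCreERT2 mice crossed to an R26R-STOP-floxed eYFP reporter (genotype +/+ in the labels), in which 4-hydroxytamoxifen lets the Arc-driven recombinase switch on eYFP permanently in active cells, and nuclei were sorted with antibodies to NeuN and GFP. Mice were given 4-hydroxytamoxifen 1 h before contextual fear conditioning. Hippocampi of 10 to 12 mice were pooled to reach 10000 nuclei per condition. There were 3 Basal libraries, and 4 each for the Early, Late and Reactivated groups. The series was described as following memory encoding, consolidation and recall, and the protocol gives collection 1.5 to 2 h or 5 days after conditioning, with a share of the mice kept for 5 days then exposed to the cue again. The labels tie no group name to an interval, do not say how Basal mice were handled and give no age. A contact made in fewer nuclei and one made less often in each nucleus cannot be told apart in pooled nuclei. Scores of contact do not measure expression, so the sorted cells could not be checked against marker genes.

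The 15 libraries differed widely within groups. They held 35 to 12133 scored listings each and score sums of 3114 to 9590409. Reactivated 1 and Reactivated 2 stood apart with 35 and 388 scored listings, of which 0 and 4 belonged to trafficking promoters. Libraries also shared fragments in sets: for 6 pairs from a single group, the smaller library had 40% or more of its fragments in the other. Basal and Early gave a pair each (Basal 1 with 2, Early 3 with 4). Late and Reactivated each split into a pair of libraries 1 with 2 and a pair of 3 with 4, which left 9 sets. Outside these pairs, libraries of the same group shared 7.71% (Late 2 with 3) to 16.7% (Basal 2 with 3). Libraries of different groups shared 5.73% (Early 2 with Late 2) to 29.7% (Basal 3 with Late 3). These ranges overlap, and the highest share outside the pairs was between groups. Over trafficking listings alone, the shared part of the smaller library was 93.7% in the Basal pair, 85.4% in the Early pair, 53.6% for Late 1 with 2, 91.8% for Late 3 with 4 and 96.2% for Reactivated 3 with 4. Since the labels do not say whether libraries came from separate pools of mice, p-values measure the spread between these libraries, which may be technical.

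Promoter sequences were searched for short motifs on both strands. CACGTG, the palindromic E-box core bound by basic helix-loop-helix factors, of which TFEB is known for lysosomal and autophagy genes, was found in 10 of 56 trafficking windows (17.9%) and in 371 of 4162 windows of the other promoters in the table (8.91%). The windows run from 250 bases before to 50 after each RefSeq start (GRCm38.p6) and were available for 48 of the 70 promoters. Over all windows of the reference the share was 7.15%. With only the bases before the start it was 14.3% of trafficking windows, 7.57% of other table windows and 6.02% of all windows. These shares are descriptions, and a match is not a bound site. The sequences below are the 250 bases before the start of 4 promoters whose contacts are described further on, on the strand of the gene, with CACGTG and GGGCGG in capitals. Napa is shown for its 3 copies of CACGTG, Atp6v1a and Atg5 for a single copy in a pump and an autophagy promoter, and Ap1g2, which had the fragment scored in the most libraries, for having none.
Napa, chr7:16098330-16098579, plus strand: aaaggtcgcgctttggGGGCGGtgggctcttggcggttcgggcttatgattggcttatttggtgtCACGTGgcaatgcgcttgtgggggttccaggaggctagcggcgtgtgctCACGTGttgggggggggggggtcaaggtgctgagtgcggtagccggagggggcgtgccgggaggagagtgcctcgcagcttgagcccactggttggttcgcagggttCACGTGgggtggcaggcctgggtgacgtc
Atp6v1a, chr16:44139260-44139509, minus strand: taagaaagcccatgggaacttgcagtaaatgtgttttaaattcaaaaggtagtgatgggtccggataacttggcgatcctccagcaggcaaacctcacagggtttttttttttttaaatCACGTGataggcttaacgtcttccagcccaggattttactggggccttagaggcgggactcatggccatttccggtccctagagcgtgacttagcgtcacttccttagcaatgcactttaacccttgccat
Atg5, chr10:44268089-44268338, plus strand: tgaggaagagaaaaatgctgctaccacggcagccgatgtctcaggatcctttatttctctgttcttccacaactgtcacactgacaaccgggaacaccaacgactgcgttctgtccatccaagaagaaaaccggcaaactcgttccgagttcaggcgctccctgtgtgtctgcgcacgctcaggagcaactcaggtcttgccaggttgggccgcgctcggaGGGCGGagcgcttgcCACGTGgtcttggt
Ap1g2, chr14:55106594-55106843, minus strand: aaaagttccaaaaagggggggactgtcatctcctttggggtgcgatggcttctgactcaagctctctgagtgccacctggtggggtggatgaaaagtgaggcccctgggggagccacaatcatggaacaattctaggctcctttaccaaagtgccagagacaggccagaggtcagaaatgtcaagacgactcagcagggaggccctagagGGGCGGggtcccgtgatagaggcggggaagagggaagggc

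Before the start, 3 or more copies of CACGTG were found in 1 of 56 trafficking windows, that of Napa, in 2 of 4162 windows of other table promoters (0.0481%) and in 20 of 32851 windows of the whole reference (0.0609%). The cyclic AMP response element TGACGTCA was in 4 trafficking windows (7.14%) and in 2.81% of other table windows, and with only the bases before the start in 2 (3.57%) and 2.40%. Over the whole window, GGGCGG was in 36 (64.3%) and 59.7%, and TATAAA in 4 (7.14%) and 8.84%. AAGCTT, the HindIII site at which the chromatin was cut, was in 2 (3.57%) and 6.08%. Median GC content was 62.2% in trafficking windows and 60.3% in other table windows. No motif contains another, though CACGTG and TGACGTCA share the letters ACGT.

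The number of fragments per trafficking promoter was close to that of other promoters. With all fragments kept, the share of listings scored in several libraries was somewhat higher. The median trafficking promoter had 8 fragments (interquartile range 3 to 12.75, lowest 1, highest 36), against 6 for the other 4359 promoters (3 to 11, highest 163). The 95% interval of the trafficking median, 5 to 10, holds 6, and the trafficking median was 6 without fragments listed with several promoters, without Early 1 or with scores of 10 or more only. Of trafficking listings, 457 of 629 (72.7%) were scored in at least 2 libraries. The share was 67.2% for the other promoters, with a background of 67.3% over all listings. Without fragments listed with several promoters the trafficking share was 67.6%. That share was not recomputed for other promoters. Libraries of a set share 40% or more of the smaller library's fragments, so the count over sets is the stricter one. At least 2 sets scored 270 trafficking listings (42.9%), against 34.3% of other listings (34.4 percent over all). This count includes fragments listed with several promoters and was not recomputed without them. For at least 3 sets the shares were 15.6% and 11.0%. Scores in all 4 groups were seen for 17 trafficking listings (2.70%) and for 1.58% of other listings (1.6 percent over all). No test was run over the members, which are not replicates.

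**Figure D1:**
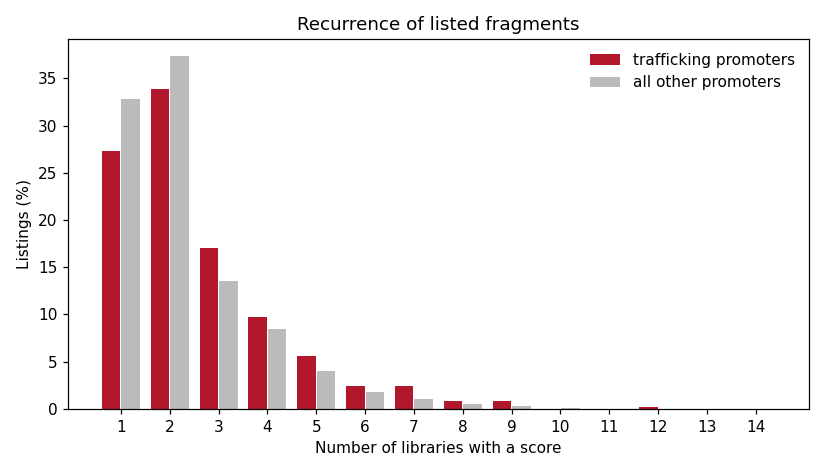
Percent of listings (y axis) by the number of libraries that scored them (x axis), for trafficking promoters in red and all other promoters in grey. Trafficking listings were less often scored in a single library, 27.3% against 32.8%, and their bars are the higher ones from 3 to 9 libraries.

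The scores themselves had close medians. The median score of trafficking listings was 99 (interquartile range 22 to 341, highest 10572), against 95 for other listings (22 to 368, highest 13683). Trafficking fragments also lay a little closer together: 477 (75.8%) were within 500 kb of the median fragment of their promoter, against 71.0% of others, and 78 (12.4%) were more than 5000 kb away, against 15.3%. Their median length was 2770 bp, against 2966 bp. Fragments listed with more than 1 promoter made up 120 trafficking listings (19.1%), against 15.4% of others, and all 119 such fragments had identical scores under each promoter, so that their score cannot be assigned to a single gene.

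A set of 67 related genes that the name rule does not take (Rab, Rims, clathrin, lysosomal, exocyst and similar genes, of 171 listed for this comparison) was also counted. Their median was 6 fragments per promoter, 69.8% of their listings were scored in at least 2 libraries and 35.6% in at least 2 sets, and their median score was 81.

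The share of trafficking listings scored in a library exceeded that of other promoters in 11 of the 15 libraries. In the Basal libraries 1 to 3 it was 14.6%, 12.6% and 20.0%, against 12.5%, 11.1% and 16.6% for other promoters. In Early 1 to 4 it was 19.4%, 5.25%, 19.6% and 20.5%, against 19.1%, 4.71%, 15.4% and 18.4%. In Late 1 to 4 it was 8.90%, 9.70%, 26.1% and 25.3%, against 9.46%, 10.3%, 22.6% and 22.8%. The exceptions were Late 1 and 2 and Reactivated 1 and 2. The Reactivated shares were 0%, 0.636%, 37.2% and 39.4%, against 0.098%, 1.07%, 31.7% and 33.3%. As group means the shares were 15.7 ± 3.86% in Basal (SD, n = 3), 16.2 ± 7.30% in Early, 17.5 ± 9.47% in Late and 19.3 ± 22.0% in Reactivated (SD, n = 4 each), and the groups overlapped.

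**Figure D2:**
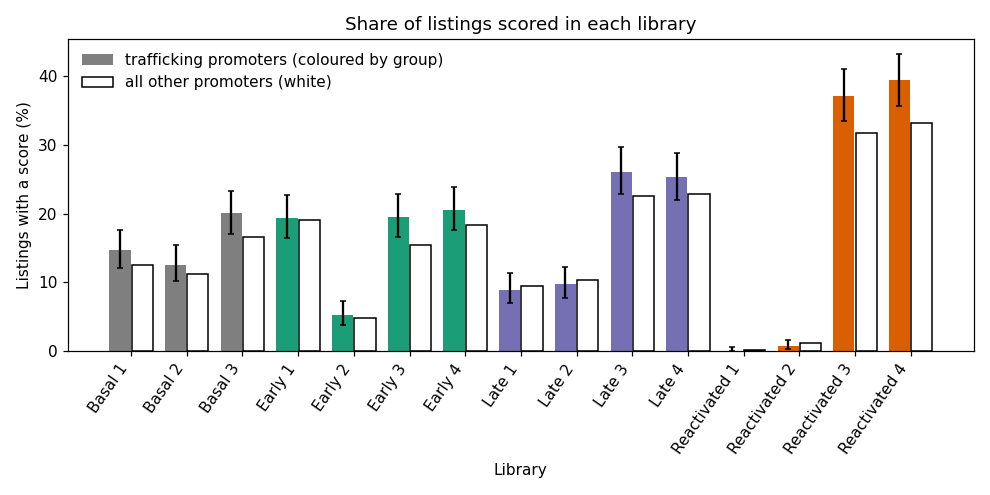
Percent of listings with a score (y axis) in each of the 15 libraries (x axis) for trafficking promoters (coloured by group, with 95% Wilson intervals that cover counting error only) beside all other promoters (white). Reactivated 3 and 4 are highest at 37.2% and 39.4%, and Reactivated 1 and 2 are at or near 0.

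An interaction was called in a group where at least 1 library scored 5 or more. Of trafficking listings, 197 (31.3%) were called in Basal, where the background over all listings was 27.1 percent. In Early 258 (41.0%) were called over a background of 39.9 percent, in Late 236 (37.5%) over 36.8 percent, and in Reactivated 245 (39.0%) over 33.8 percent. Listings scored in a single group numbered 56 in Basal (8.9%, background 8.92 percent), 110 in Early (17.5%, 20.9 percent), 102 in Late (16.2%, 19.3 percent) and 105 in Reactivated (16.7%, 17.9 percent). At the level of promoters, 42 of 70 (60.0%) had a score in all 4 groups over a background of 55.7 percent, and 9 (12.9%) had none in Basal and Early over 9.48 percent.

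**Figure D3:**
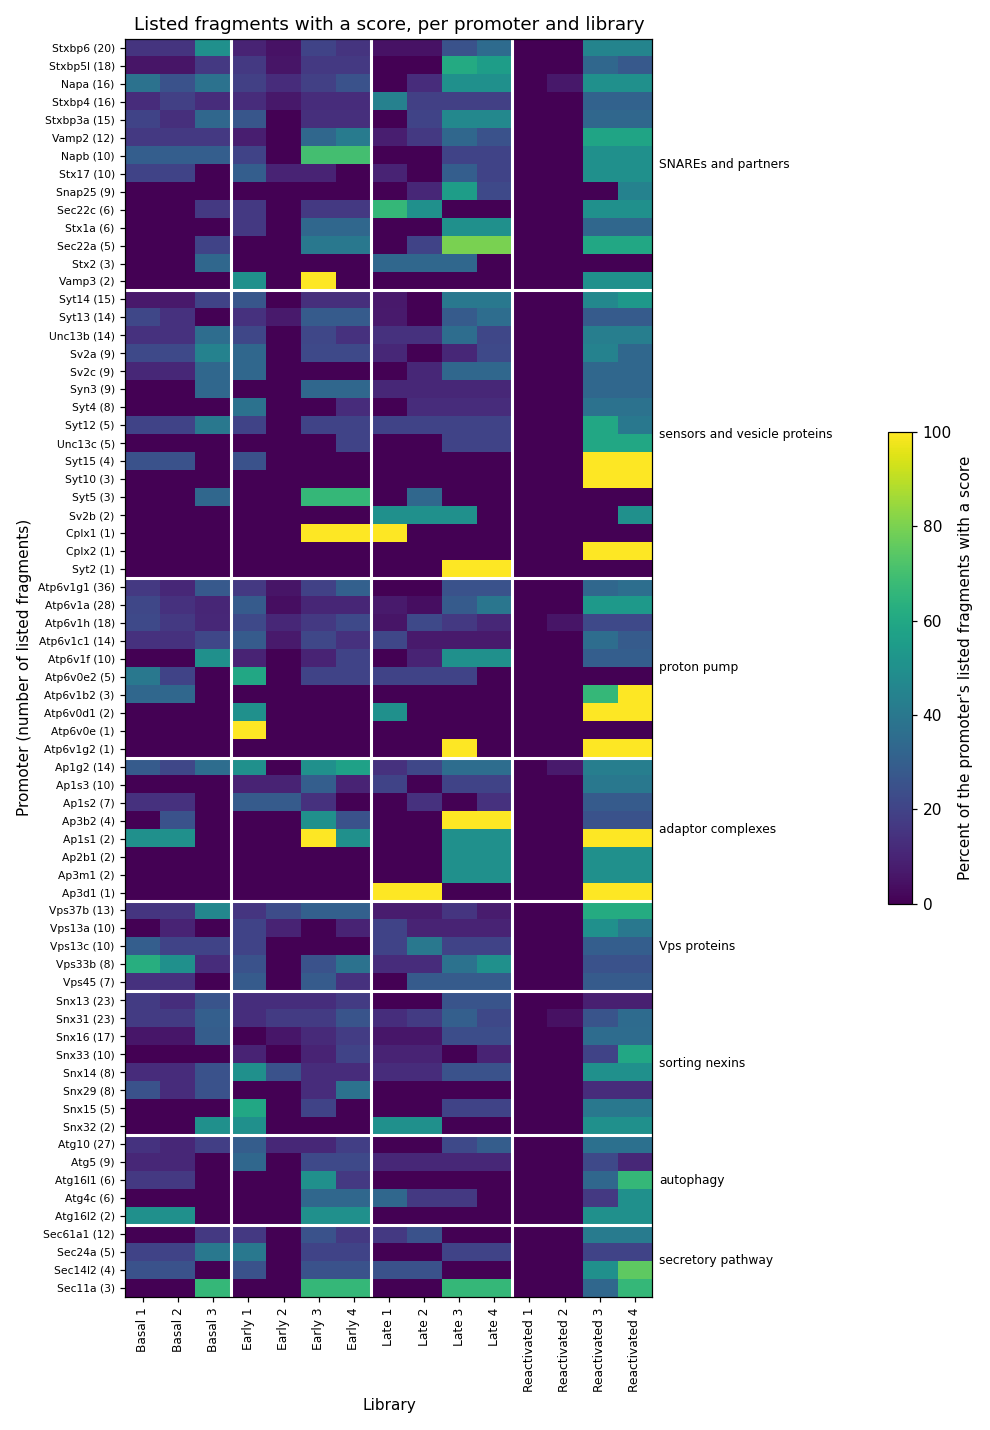
Percent of the listed fragments of each of the 70 trafficking promoters (rows, ordered by role) that were scored in each of the 15 libraries (columns, ordered Basal, Early, Late, Reactivated). The scale runs from dark at 0 to yellow at 100 percent, and numbers beside the names are listed fragments. Many rows are brightest in Reactivated 3 and 4, and all are dark in Reactivated 1, which had no trafficking score.

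The SNAREs and their partners came with 14 promoters and 148 listings, and 52.7% of these listings were scored in at least 2 sets. Snap25, a plasma membrane SNARE of synapses, had 9 fragments and no score in any of the 7 Basal and Early libraries. In Late 1 to 4 it had 0, 1, 5 and 2 scored fragments and in Reactivated 1 to 4 it had 0, 0, 0 and 4, with scores of 3 to 123. Its promoter was thus one of the 9 without a Basal or Early score. Vamp2, the synaptobrevin of synaptic vesicles, had 12 fragments and scores in 12 libraries. Stx1a, the syntaxin partner of Snap25, had 6. Syt1, Syt7, Syn1, Syn2, Unc13a, Nsf, Atg7, Vps35 and Atp6v0a1 were not analysed here. Stxbp6 (amisyn) had 20 fragments and Stxbp5l (a tomosyn, a brake on SNARE assembly) 18, the most of this group.

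Napa and Napb encode the SNAP adaptors that bring the ATPase NSF to spent SNARE complexes. A Napa fragment at chr7:13626621-13627263 (mm9, as are all fragment positions here) was scored in 8 libraries of 6 sets. Its scores were 104, 0 and 0 in Basal, 85, 84, 135 and 75 in Early, 0, 0, 23 and 11 in Late and 0, 17, 0 and 0 in Reactivated. Early was the only group in which every library scored it, and the same fragment was also listed with other promoters. Stxbp3a, a Munc18 relative that binds syntaxins, had a fragment scored in 8 libraries at chr3:108713941-108717574, also listed with Scarna2. It scored 263, 126 and 0 in Basal, 0, 0, 83 and 38 in Early, 0, 0, 981 and 753 in Late and 0, 0, 866 and 1066 in Reactivated, so each group had it in 1 set only.

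Calcium sensors and vesicle proteins came with 16 promoters and 103 listings, and 40.8% of the listings recurred in at least 2 sets. Sv2a, a vesicle glycoprotein, had 9 fragments, Sv2c 9, Sv2b 2 and Syn3, a synapsin that coats vesicles, 9. Cplx1 and Cplx2 encode complexins, which clamp and assist SNARE complexes, and each had a single fragment. That of Cplx1 scored 86 and 38 in Early 3 and 4 and 13 in Late 1, with no score in the other 12 libraries. That of Cplx2 scored 7 and 20 in Reactivated 3 and 4 only. Syt2, a fast calcium sensor, had a single fragment with scores of 82 and 53 in Late 3 and 4 only. For these promoters a group value rests on 1 or 2 sets.

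Syt12, a synaptotagmin, had a fragment at chr19:9055860-9062952 that was scored in 9 libraries of 5 sets and was also listed with Eef1g. It scored 1203, 668 and 12 in Basal, 0, 0, 230 and 139 in Early, 6, 10, 1541 and 1098 in Late and 0 in all 4 Reactivated libraries. Every Basal and Late library scored it and no Reactivated library did.

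The vacuolar proton pump, which acidifies vesicles and lysosomes, had 10 promoters and 118 listings, the highest median score (170.5) among the roles, and 41.5% of listings in at least 2 sets. Atp6v1g1, a subunit of the peripheral sector, had 36 fragments, the most of any trafficking promoter. Within the pump, Atp6v1a, the catalytic subunit, had 28, and Atp6v1h, a regulatory subunit, had 18. The highest trafficking score of the table stood at the Atp6v1g1 fragment chr4:63136364-63136626, with 10160 and 10572 in Reactivated 3 and 4 and no score in the other 13 libraries. Another Atp6v1g1 fragment, at chr4:63214862-63215517, was scored in 9 libraries of 6 sets, with 1862, 0 and 27 in Basal, 188, 0, 444 and 212 in Early, 0, 0, 865 and 548 in Late and 0, 0, 1998 and 1944 in Reactivated. The first fragment is thus seen in 1 set and the second in every group.

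Atp6v1a had a fragment at chr16:44142518-44143248 that scored 3381, 1878 and 0 in Basal, 624, 0, 1032 and 629 in Early, 0 in all 4 Late libraries and 0, 0, 5753 and 6036 in Reactivated. It was scored in 7 libraries of 4 sets, and Late was the group that lacked it. A fragment of the same promoter at chr16:43738790-43739169, also listed with Zbtb20, scored 429, 293 and 0 in Basal, 0 in all 4 Early libraries, 12, 15, 15 and 21 in Late and 0, 0, 78 and 95 in Reactivated. Here Early was the group without a score.

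The 8 adaptor promoters had 42 listings, of which 45.2% recurred in at least 2 sets. Among them, Ap1g2 (a gamma adaptin of the coat that sorts cargo at the trans-Golgi network and endosomes) had 14 fragments. Its fragment at chr14:55730460-55739058 was scored in 12 libraries of 7 sets, more than any other trafficking fragment. The scores were 85, 60 and 13 in Basal, 288, 0, 298 and 148 in Early, 49, 39, 163 and 171 in Late and 0, 0, 1227 and 1298 in Reactivated, so all groups shared it. The near neighbour at chr14:55724395-55728441 had the identical score in 7 of the 8 libraries that scored both. Over all trafficking promoters, identical scores were seen for 30 of 2926 pairs of fragments of the same promoter in the same library. Ap2b1, Ap3d1 and Ap3m1, subunits of the clathrin coat adaptor of endocytosis and of an endosomal adaptor, had scores in Late and Reactivated only.

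Ap3d1 had a single fragment, at chr10:80281222-80290296, also listed with Lingo3 and Polrmt. It scored 72 and 76 in Late 1 and 2 and 3185 and 3018 in Reactivated 3 and 4. The 5 Vps promoters, of proteins for endosome tethering, sorting and lipid transfer, had 48 listings, and 54.2% of these were scored in at least 2 sets. Vps33b, which acts in late endosome tethering, had a fragment at chr7:87717308-87730823 with 0, 0 and 4 in Basal, 0 in all 4 Early libraries, 13, 15, 1284 and 900 in Late and 0 in all 4 Reactivated libraries. Every Late library scored it, at levels that differed widely between the sets.

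The 8 sorting nexin promoters, of lipid-binding proteins of endosomes, had 96 listings, of which 34.4% recurred in at least 2 sets. Snx13 and Snx31 had 23 fragments each. An Snx31 fragment at chr15:36475298-36481425 was scored in 9 libraries of 6 sets, with 0, 0 and 36 in Basal, 0, 341, 875 and 499 in Early, 0, 0, 1059 and 744 in Late and 0, 302, 2863 and 2669 in Reactivated. A different Snx31 fragment, at chr15:36096936-36099391, scored 26, 32, 268 and 177 in Late and nothing in the other 11 libraries. The Snx14 fragment chr9:88374707-88378061 scored 0, 0 and 8 in Basal, 210, 392, 453 and 6 in Early, 0 in all 4 Late libraries and 0, 0, 329 and 372 in Reactivated. Late was the only group without a score there.

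Autophagy had 5 promoters and 50 listings, of which 28.0% recurred in at least 2 sets, the lowest share among the roles. Atg10, an enzyme that joins Atg12 to Atg5, had 27 fragments, and Atg5 had 9, none of them scored in more than 2 libraries. An Atg10 fragment at chr13:91348603-91354112 scored 419, 282 and 0 in Basal, 149, 210, 401 and 232 in Early and 0 in all Late and Reactivated libraries. A neighbour at chr13:91373966-91375891 scored 371, 265 and 78 in Basal, 0, 0, 83 and 32 in Early, 0, 0, 2441 and 1749 in Late and 0, 0, 683 and 741 in Reactivated. Late and Reactivated lacked the first fragment, and every group had the second. The 4 secretory pathway promoters, of Sec61a1 (a translocon subunit), Sec24a (a transport coat subunit), Sec11a (a signal peptidase subunit) and Sec14l2 (a lipid-binding protein), had 24 listings, of which 37.5% recurred in at least 2 sets.

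**Figure D4:**
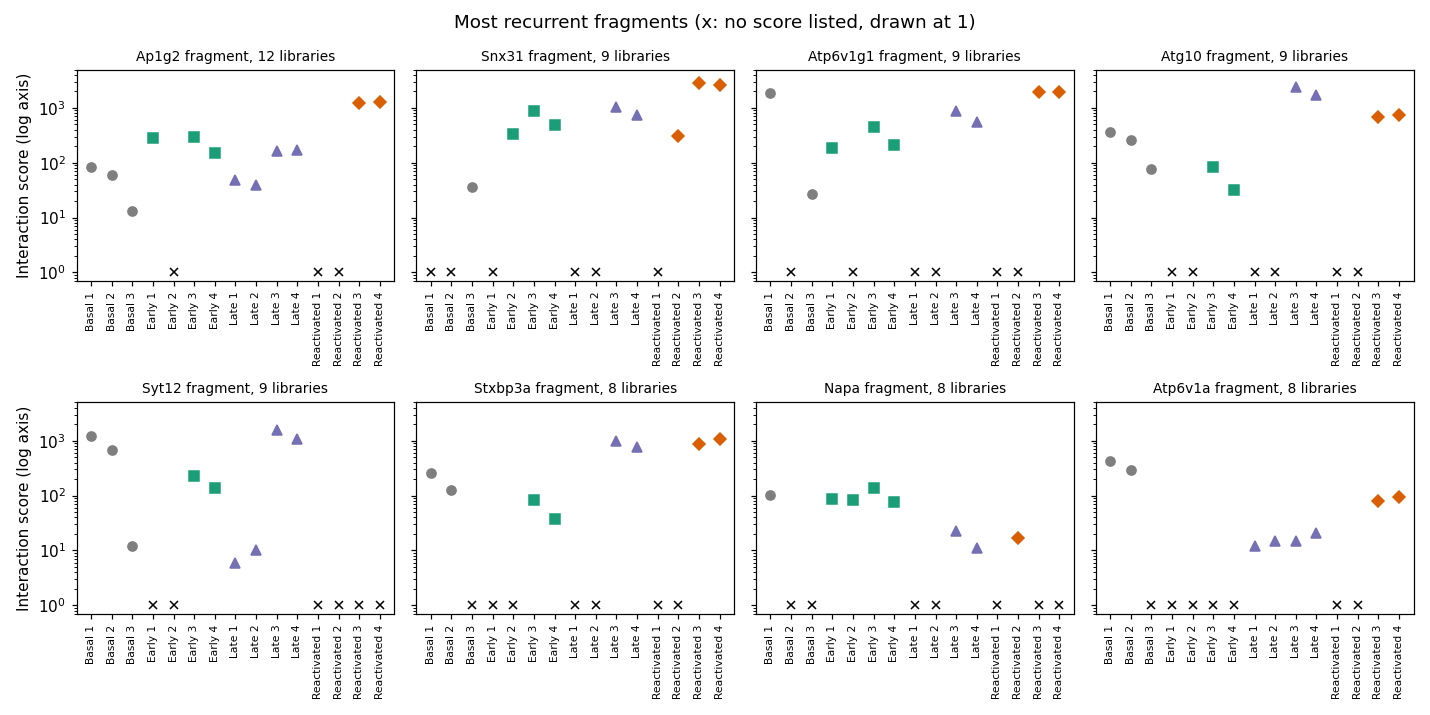
Scores on a log axis in the 15 libraries (x axis, ordered Basal, Early, Late, Reactivated) of the 8 trafficking fragments scored in the most libraries, 1 panel each, with a cross where no score is listed. The Ap1g2 fragment has scores in 12 libraries. All 8 lack a score in Reactivated 1, which scored no trafficking listing at all.

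**Figure D5:**
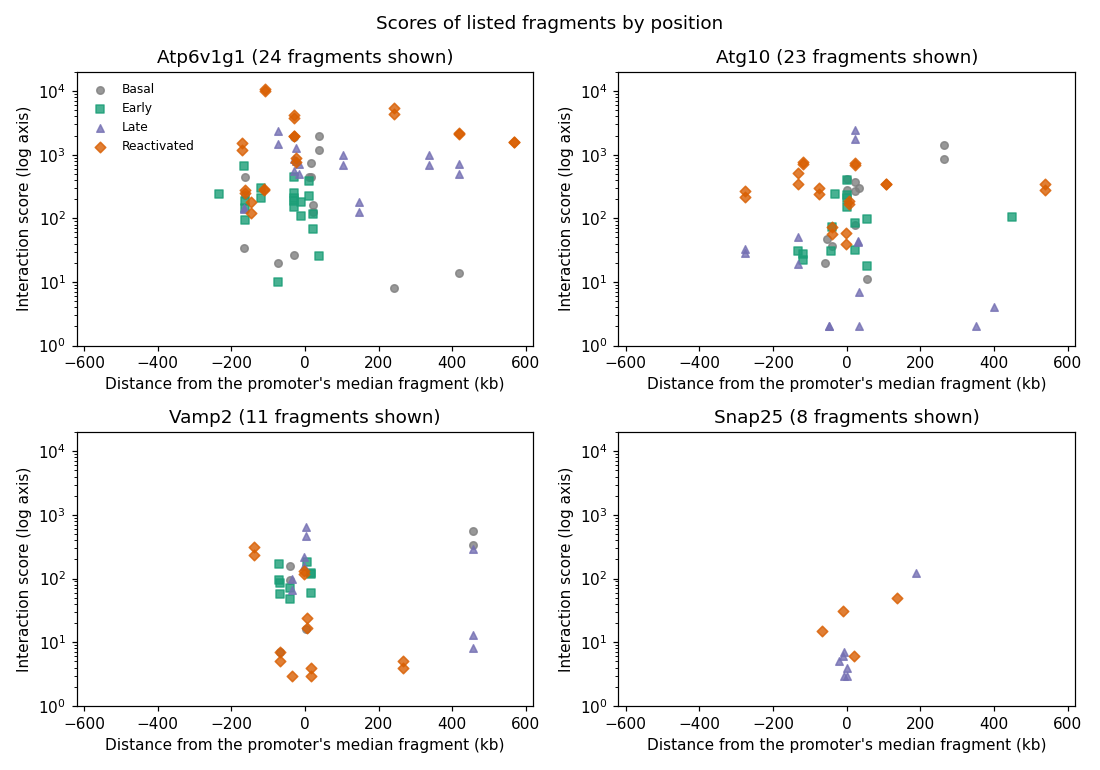
Score of each listed fragment on a log axis against its distance in kb from the median fragment of the promoter, for Atp6v1g1, Atg10, Vamp2 and Snap25, with 1 point per library and the group given by shape and colour. Fragments farther than the axis range are not drawn. The Snap25 panel holds Late and Reactivated points only, and the top Atp6v1g1 points, at 10160 and 10572, are Reactivated.

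Early was compared with Basal first. No trafficking listing differed by limma at a Benjamini-Hochberg adjusted p under 0.05, and the whole table had none either (0.0 percent), with a lowest trafficking adjusted p of 0.185. In simulated data, made by shuffling the values of each library over listings, the fit missed most added changes per listing. Shuffling does not keep the spread of single listings or the likeness within sets, so how often the real fit misses is unknown. A lack of calls here and in the other comparisons thus does not show that scores did not differ. At an unadjusted p under 0.05, 71 trafficking listings (11.3%) passed, near the background of 10.6 percent. Differences are given in mean asinh score, a log-like scale on which no score is 0, and the 3 most negative were at Ap1g2, Sv2a and Atp6v1h. The Ap1g2 fragment chr14:55645986-55651091 scored 0 in all 4 Early libraries, against 867, 502 and 28 in Basal, a difference of −6.13 ± 1.82 (SE, limma adjusted p = 0.185), and it had no score in Late or Reactivated. The Sv2a fragment chr3:95832502-95834567 scored 0 in Early, against 982, 669 and 9 in Basal, and was also absent elsewhere. The Atp6v1h fragment chr1:4910158-4913285 scored 0 in Early, against 838, 473 and 11 in Basal, and 1106 and 1086 in Reactivated 3 and 4. In each, Basal 3 had the lowest Basal score. Without Basal 3, 24 of 600 trafficking listings (4.0%) passed limma, all lower in Early, over a background of 4.08 percent, and none was higher (0.0 percent). In that fit the Basal group is Basal 1 and 2, which form a single set but are counted as separate libraries.

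These 3 fragments were among 8 trafficking listings (1.27%) scored in every Basal library and no Early library, over a background of 0.875 percent. The others belonged to Napa, Napb, Sec24a, Stxbp6 and Unc13b. No trafficking listing was scored in every Early library and no Basal library (background 0.0715 percent). The 3 most positive differences were at Snx14, described above, and at other fragments of Unc13b and Napb. The fragment of Unc13b, a vesicle priming factor, at chr4:42946225-42952606 (also listed with Dnajb5) scored 46, 0, 595 and 338 in Early, against 0 in all 3 Basal libraries. That of Napb at chr2:148411837-148412727 (also listed with Sstr4) scored 131, 0, 298 and 174 in Early, against 0 in Basal. For mean scores of promoters, none of 70 trafficking promoters passed (background 0.0 percent), 2 (2.86%) had an unadjusted p under 0.05 (5.83 percent over all), and 33 (47.1%) were higher and 28 lower in Early, where 49.7 percent of all promoters were higher and 40.8 percent lower. Without Early 1 the split was 28 higher and 31 lower, and with quantile normalization it was 31 and 30. The split of all promoters under these settings is not given here. The 2 were Cplx1 and Vamp3, at differences of 2.37 and 2.13 with limma adjusted p = 0.819 each.

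Late was compared with Early. No trafficking listing passed limma (0.0 percent of the table, lowest trafficking adjusted p = 0.276), and 100 (15.9%) had an unadjusted p under 0.05, near the background of 15.1 percent. The most positive differences were at Vps33b, Syn3 and Snx31. The Vps33b fragment described above had a difference of 5.50 ± 1.89 (SE, limma adjusted p = 0.276). The Syn3 fragment chr10:85922928-85925066 scored 18, 27, 355 and 306 in Late, against 0 in all 4 Early libraries, and 8 in Basal 3. Scores in every Late library and no Early library were seen for 5 trafficking listings (0.795%, background 0.239 percent), of Atp6v1a, Snx31 (2 of them), Syn3 and Vps33b. The reverse was seen for 2 (0.318%, background 0.044 percent), of Atg10 and Snx14, whose scores are given above. With the Atp6v1a fragment that Late lacked, these 2 had the most negative differences. For mean scores of promoters, none of 70 passed limma (background 0.0903 percent), 5 (7.14%) had an unadjusted p under 0.05 (6.95 percent over all), and 38 (54.3%) were higher and 29 lower in Late, where 53.9 percent of all promoters were higher and 41.0 percent lower. This split turned when 1 library was left out. It was 25 higher and 41 lower without Late 3, and 29 and 38 without Late 4. Without Early 2 it was also 29 and 38. How all promoters split in these fits is not given here, so the turn may not be particular to trafficking promoters. The 5 were Syt2, Sv2b, Stx2, Syt5 and Vamp3, with differences of 2.44, 1.24, 1.00, −1.76 and −2.13.

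Reactivated was compared with Late. No trafficking listing passed limma (0.0 percent of the table, lowest trafficking adjusted p = 0.141), and 161 (25.6%) had an unadjusted p under 0.05, near the background of 26.2 percent. The Atp6v1g1 fragment with the highest score had a difference of 4.97 ± 1.74 (SE, limma adjusted p = 0.141), and the Snx16 fragment chr3:10254158-10258014 had scores of 0, 0, 4114 and 4487 in Reactivated, against 0 in all 4 Late libraries. Both rest on Reactivated 3 and 4, a single set. The fragment of Stxbp4, at chr11:90486990-90494458, scored 0 in all Reactivated libraries, against 41, 48, 663 and 473 in Late (difference −5.75 ± 2.08, limma adjusted p = 0.141). Scores in every Late library and no Reactivated library were seen for 6 trafficking listings (0.954%, background 0.311 percent): the 2 Snx31 fragments, Stxbp4, Syn3, Syt12 and Vps33b. The reverse (background 0.00275 percent) could not occur for a trafficking listing, since Reactivated 1 scored none of them. As Reactivated 1 and 2 hold almost no scores, absence in every Reactivated library rests on Reactivated 3 and 4.

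Mean scores of promoters in the same comparison passed limma for none of 70 (background 0.0677 percent), with 8 (11.4%) at an unadjusted p under 0.05 (13.8 percent over all). Higher means were seen for 48 (68.6%) and lower for 21 (30.0%), against 58.5 percent and 38.1 percent of all 4429 promoters, and the median difference was 0.35, against 0.18 over all. This lean depends on scaling and on single libraries: with quantile normalization 25 were higher and 44 lower (median −0.19, against −0.18 over all), and with library median scaling 41 and 28 (median 0.00894). Without Reactivated 3 the split was 36 and 33, and without Reactivated 4 it was 35 and 34. The matching splits of all promoters are not given here. By role, 8 proton pump promoters were higher and 1 lower, 7 and 1 sorting nexins, 11 and 5 sensors and vesicle proteins, 8 and 6 SNAREs and partners, 6 and 2 adaptors, 3 and 2 autophagy, 3 and 1 secretory and 2 and 3 Vps promoters, and none of these passed limma. Atp6v1g2, Atp6v0d1 and Syt15 had differences of 3.17, 3.14 and 2.45, and Syt2 one of −2.44. Atp6v1g2 had a single listed fragment, at chr17:35223588-35224015, also listed with Nfkbil1. It scored 0, 0, 584 and 576 in Reactivated, against 0, 0, 2 and 0 in Late. Both fragments of Atp6v0d1 were also listed with other promoters. The differences of Atp6v1g2 and Atp6v0d1 thus cannot be assigned to a single gene. Without Reactivated 1 and 2, 35 of 70 trafficking promoters passed, all higher in Reactivated (50.0%), over a background of 42.5 percent, and none was lower (background 1.38 percent). With each library set taken as a mean and without these 2 libraries, Reactivated is a single value assumed to vary like the other groups, and 9 (12.9%) passed, all higher, over a background of 12.5 percent, and none was lower (background 0.0678 percent). With both Reactivated sets kept as means, none of the 70 passed limma, and none of all 4429 promoters passed (0.0 percent). Of trafficking listings, 167 (26.6%) were higher and 5 (0.795%) lower without Reactivated 1 and 2, over backgrounds of 25.0 and 0.285 percent, and 126 (20.0%) and 2 (0.318%) with sets as means and the single Reactivated value, over 20.9 and 0.155 percent. The higher listings were near their background in both fits. Leaving out Reactivated 1 alone gave 82 listings (13.0%, background 13.5 percent) and 4 promoters (5.71%, background 3.5 percent). Leaving out Reactivated 2 alone gave 83 listings (13.2%, background 13.5 percent) and 4 promoters (background 3.3 percent). The related genes gave none called in any comparison, with 28 higher and 30 lower in Early against Basal, 46 and 18 in Late against Early and 34 and 32 in Reactivated against Late.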

How the data were processed

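The authors deposited an interaction score for each promoter and HindIII fragment in 15 libraries, per the file headers, on build mm9, per the submitters' processing notes. The sources used here do not give the scoring program, aligner, filters or normalization. The lowest listed score is 2, all are whole numbers, and a listing with none was set to 0. They may scale with depth, which is unknown. Bait positions were not used here, so distances are from the median fragment of a promoter. Groups came from sample titles. The treatment labels count a collection day up with sample order and state no recall for every sample, against the protocol, and were not used.

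Fits were run in R 4.3.3 using limma 3.58.1 and statmod 1.5.0, with variance trend and robust step, on asinh(score) of all 36353 listings and on its mean per promoter, over all 15 libraries, with Benjamini-Hochberg adjustment over the whole table and a threshold of 0.05. The fit was tested on simulated data: it recovered very large added changes with little spread, a setting reached after a first, smaller change per promoter was not recovered. With the values of each library shuffled over listings or promoters, it missed most added changes per listing and every moderate one per promoter. Shuffling does not keep the spread of single rows or the likeness within sets, so these misses do not measure those of the real fit. The absence of calls does not show that contacts were unchanged. Library sets (40% or more of the smaller library's fragments shared) were defined after the sharing was seen. Members, lists and tests were chosen with earlier results of these data known. Replicate numbers gave no sign of pairing in correlations of deviations from group means, taken between libraries of different groups. These ran from −0.0468 to 0.0665 for same-numbered libraries and from −0.0629 to 0.0630 for others. With most cells empty, this measure cannot exclude a shared pool. Named are the 3 fragments with the most positive and the 3 with the most negative difference per comparison, the 8 promoters with the most fragments, the 8 fragments in the most libraries, 2 members with the most fragments per role and a fixed list of synaptic genes; further members were named after their values were seen. Promoter windows are from RefSeq (GRCm38.p6). Of the 70 names, 69 matched a gene symbol and 1 a synonym (Stxbp3a). Figures were drawn with matplotlib 3.10.9, and descriptions were computed with pandas 2.3.3 and scipy 1.17.1 under Python 3.11.15.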

Additional observations from a re-analysis of the deposited data

Results flagged for a closer look

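The share of trafficking listings scored in Early 2, 5.25%, lay far from those of the other Early libraries, 19.4%, 19.6% and 20.5%. In Early 2, other promoters were also low, at 4.71%. This was the only one of 5 groups of values tested for a library far from the rest that was so marked, and chance marks about 1 in 20.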

How the results depend on the processing

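Of 306 values recomputed under other settings, 277 stayed within their limits and 29 moved. Reversal of direction was not assessed among them. The splits of higher and lower promoters given above, some of which turned, were not among these values. Some values could not move, such as the Basal calls when a library of another group was left out. The count of trafficking listings passing limma was 0 in each comparison. In Early against Basal it was 2 without the variance trend (0.318%, against 0.391% of all listings), 3 without Reactivated 1 and 2 (0.477%, 0.539%), 1 with library sets as means without those libraries (0.159%, 0.0747%; added after seeing the data, with Reactivated a single value), and 0 to 24 with each library left out in turn, the 24 without Basal 3 and all lower in Early. Without Basal 3, the Basal group is a single set, Basal 1 and 2. In Late against Early the count was 5 without the trend (0.795%, 0.157%), 2 without Reactivated 1 and 2 (0.318%, 0.177%) and 0 with any single library left out. In Reactivated against Late it was 4 without the trend (0.636%, 0.162%), 172 without Reactivated 1 and 2 (27.3%, 25.3%), 128 with sets as means without them (20.3%, 21.1%), where the single Reactivated value is assumed to vary like the other groups, and 0 to 83 with each library left out (82 without Reactivated 1, 83 without Reactivated 2). For promoters in that comparison it was 35 without Reactivated 1 and 2, 9 with sets as means without them and 0 to 4 with each library left out. With the replicate block it was 0 in every comparison, but the numbers gave no sign of pairing the libraries. The percent scored in 2 or more libraries was 67.6 without shared fragments and 58.2 to 76.8 with a library left out. These shares were not recomputed for other promoters. The median score was 140 at scores of 10 or more and 84 to 125.5 with a library left out. Without Stxbp and Nsfl names the trafficking share of all listings was 1.54%, against 1.73%. With a library left out, called trafficking listings were 96 to 197 in Basal (96 without Basal 3) and 168 to 258 in Early (168 without Early 1). Called shares over all listings were not recomputed with a library left out. Over the whole table, Basal 3 scored 6039 listings, against 4568 and 4054 in Basal 1 and 2. Early 1 scored 6956, the most of the Early libraries. The cause of these moves was not tested. Depth is unknown and limits what absence of a score can show.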
